A study of Mus musculus with 6 samples.

Results

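The genes described here are 10 transcripts that encode stored antimicrobial proteins of granulocytes and monocytes, or that mark the progenitors which make them: *Mpo*, *Prtn3*, *Elane*, *Ctsg*, *Ms4a3*, *Lyz2*, *Ngp*, *Camp*, *S100a8*, and *S100a9*. They were taken by symbol from a table of 26264 genes, in which all 10 were found, and all 10 passed the filter on low values (a mean of 10 or more normalized counts), which left 17404 genes. Expression was measured by bulk RNA-seq in hematopoietic stem cells (HSCs) sorted from the bone marrow of untreated female mice at 8 weeks of age, with 1 library per mouse. The groups were 3 wild-type (WT) mice and 3 mice in which the gene of IRF1, which regulates transcription in interferon responses, is deleted in the whole body (B6.129S2-Irf1tm1Mak/J, *Irf1*-/-). All other cells of these mice carried the deletion too, so that effects within HSCs and effects of their surroundings cannot be told apart. Libraries are named by the numbers 2, 3, and 4 in each genotype.

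Granule proteins are made in waves as neutrophils form. Myeloperoxidase and the serine proteases of the azurophil granules come first, in granulocyte-monocyte progenitors and promyelocytes, and proteins of the specific granules such as cathelicidin and lactoferrin follow in myelocytes, while HSCs lie upstream of all these stages. In a bulk library, fewer cells with a transcript and less of it per cell cannot be told apart.

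Between 43138521 and 59658080 reads per library were counted on genes. *Irf1* itself had normalized counts of 9267, 9524, and 9287 in the libraries labelled *Irf1*-/- and 10122, 11120, and 12057.5 in WT, a ratio of 0.843 (log2 fold change −0.24, adjusted *P* = 0.170, limma). A gene count includes the exons that a deletion leaves, so this value does not check the labels, and the genotype of each library rests on its label throughout. The HSC gene *Kit* (77902 to 88715) was high in all 6 libraries, and 4 hemoglobin genes were listed at 0 in all of them. WT replicate 4 stood apart for transcripts of neutrophil granules, and results that rest on it are given with and without it. WT replicate 3 stood apart for *Jchain*, a plasma cell gene (4071, against at most 33.0 elsewhere).

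The 10 genes spanned a wide range of levels, compared here as normalized counts per kilobase (kb) of the longest reference transcript. *Lyz2* had 19878 ± 2261 (SD, *n* = 3) per kb in WT and 21231 ± 2400 in *Irf1*-/- HSCs. It lay above *Kit*, the stem cell factor receptor, in all 6 libraries (15757 ± 351 in WT). *Prtn3* followed with 5705 ± 855 per kb in WT and 8224 ± 1228 in *Irf1*-/- HSCs. It exceeded *Procr* (2586 ± 230 in WT) and *Hlf* (2437 ± 261 in WT), a surface receptor and a transcription factor of HSCs. The other azurophil enzymes were far lower, with 86.2 ± 5.03 per kb for *Mpo*, 38.0 ± 31.5 for *Elane*, and 8.77 ± 2.09 for *Ctsg* in WT HSCs. *Ms4a3* had 46.7 ± 6.86 per kb in WT, below *Mpo* in every library and overlapping *Elane*. With the median length of the transcripts in place of the longest, *Mpo* had 294 per kb in WT. The WT means of *Ngp*, *Camp*, *S100a8*, and *S100a9* were set by WT replicate 4 and cannot be placed in this order.

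**Figure D1:**
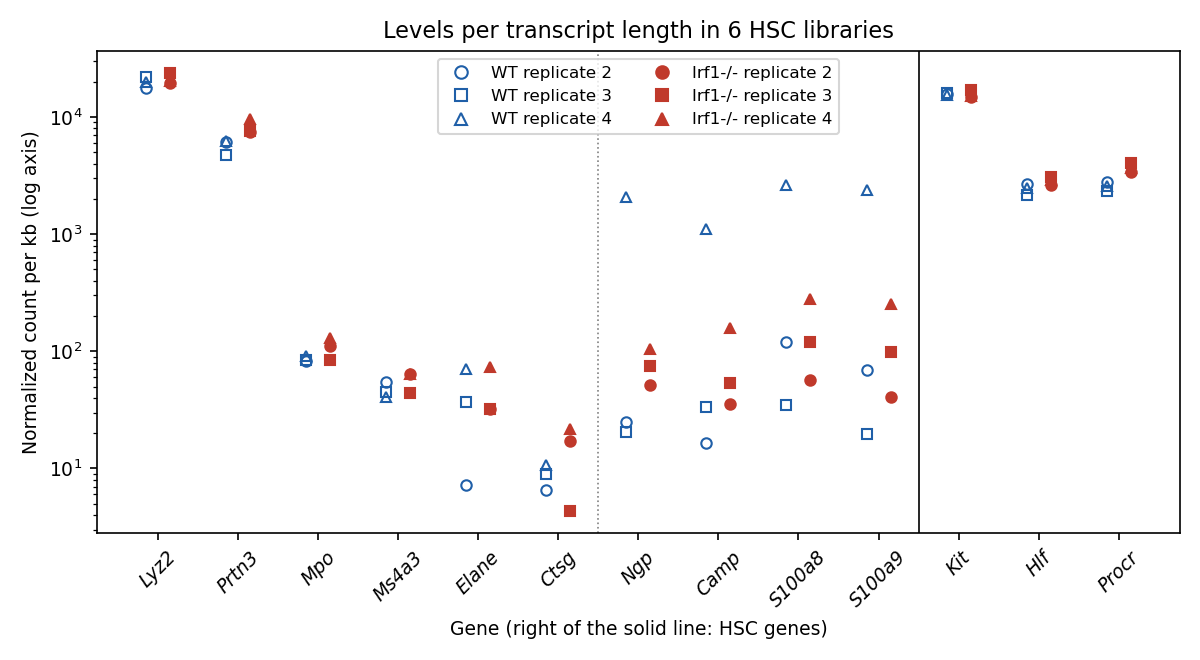
Normalized count per kb of the longest transcript (log axis) for 6 of the 10 genes ordered by their WT mean, then, right of the dotted line and in no order of level, for *Ngp*, *Camp*, *S100a8*, and *S100a9*, and right of the solid line for 3 HSC genes. Open blue symbols are the 3 WT libraries, filled red symbols are the 3 *Irf1*-/- libraries, and the shape gives the replicate number. *Lyz2* lies above the HSC genes, *Prtn3* between *Kit* and the other 2 of them, and *Mpo*, *Ms4a3*, *Elane*, and *Ctsg* reach at most 129 per kb.

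The comparison of genotypes asks whether these myeloid transcripts in HSCs differ in the absence of IRF1. It was tested with limma on log2(normalized count + 1), and a call required both an adjusted *P* below 0.05 and an absolute log2 fold change over 0.58. Of the 10 genes, 0 were called, where 1.91% of all genes tested were called. Higher calls made up 0.960% and lower calls 0.954%. limma gave 1 of the 10 an unadjusted *P* under 0.05, beside 16.5% of all genes. edgeR, run on whole reads recovered from the table, called 0 of the 10 (1.88% of all genes) with 4 at an unadjusted *P* under 0.05 (16.6% of all genes). These were *Prtn3*, *Ngp*, *S100a8*, and *S100a9*. The values of *Ngp*, *S100a8*, and *S100a9* in edgeR rest on WT replicate 4, and edgeR was not run without that library. DESeq2, which was run without the filter and called 2.06% of 24420 genes, gave an adjusted *P* to only 4 of the 10 (*Mpo*, *Prtn3*, *Ms4a3*, and *Lyz2*) and called 0 of these, with 1, *Prtn3*, at an unadjusted *P* under 0.05 (12.6% of the 24420 genes). The median log2 fold change of the 10 genes was 0.19, beside −0.0028 over all genes tested, and 6 of the 10 values were positive, beside 49.6% of all genes.

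*Prtn3*, which encodes the azurophil protease proteinase 3, had normalized counts of 7608, 7801, and 9879 in *Irf1*-/- HSCs and 6255, 4841, and 6445 in WT HSCs. All 3 *Irf1*-/- libraries lay above all 3 WT libraries. It was the only 1 of the 10 genes without overlap between genotypes, where 19.9% of all genes had no overlap and 10.6% had *Irf1*-/- above WT. The mean of *Prtn3* was 1.44 times that of WT, with a log2 fold change of 0.53 (SE 0.12, 95% interval 0.26 to 0.80, adjusted *P* = 0.0334, limma). *Prtn3* thus passed the threshold on the adjusted *P*, as did 1.73% of all genes in the same direction, and missed that on the fold change. Without the intensity trend in limma its adjusted *P* was 0.330, and it was 0.0355 in edgeR and 0.00158 in DESeq2, each with a log2 fold change of 0.53. With 3 mice per genotype an exact permutation test (two-sided) cannot go below *P* = 0.1, which *Prtn3* reached.

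Single libraries also moved *Prtn3* across the thresholds. Its adjusted *P* in limma was 0.0619 without *Irf1*-/- replicate 2, 0.170 without *Irf1*-/- replicate 4, and 0.130 without WT replicate 3. Both thresholds were passed when WT replicate 2 was left out (log2 fold change 0.583, adjusted *P* = 0.0484, limma) or WT replicate 4 (0.60, adjusted *P* = 0.0187, limma).

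*Elane*, the gene of neutrophil elastase, lies near *Prtn3* on chromosome 10. It had normalized counts of 29.8, 29.4, and 67.5 in *Irf1*-/- HSCs and 6.58, 33.8, and 64.5 in WT HSCs. Replicate 4 was the highest library of each genotype and WT replicate 2 the lowest of all, and the genotypes overlapped. Between 8 and 65 reads per library lay behind these values. The log2 fold change of 0.63 had a 95% interval from −0.90 to 2.16 (adjusted *P* = 0.747, limma), with values of −0.25 when WT replicate 2 was left out and 1.30 when WT replicate 4 was.

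The upstream sequences of *Prtn3* and *Elane* are shown because these neighbours differed so widely in level and share a motif. They are the 250 bases before the annotated start in RefSeq (GRCm38.p6), 5′ to 3′ along the gene, at chr10:79879417-79879666 and chr10:79886062-79886311 (both on the plus strand). Capitals mark GAGGAA, a core motif of PU.1, a transcription factor of myeloid cells.
Prtn3: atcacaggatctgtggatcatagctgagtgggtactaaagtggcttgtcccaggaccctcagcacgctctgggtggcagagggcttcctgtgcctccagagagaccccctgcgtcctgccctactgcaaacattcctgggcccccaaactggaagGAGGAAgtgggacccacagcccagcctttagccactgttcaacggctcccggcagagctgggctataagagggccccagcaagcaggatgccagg
Elane: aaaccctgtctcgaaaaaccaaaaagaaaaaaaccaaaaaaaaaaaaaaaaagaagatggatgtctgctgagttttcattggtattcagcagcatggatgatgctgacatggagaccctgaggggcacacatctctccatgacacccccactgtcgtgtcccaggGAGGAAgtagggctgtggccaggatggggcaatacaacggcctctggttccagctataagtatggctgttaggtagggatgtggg

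The motif begins 95 bases before the start of *Prtn3* and 85 bases before that of *Elane*. Windows from 250 bases before to 50 bases after the start were given for all 10 genes and searched on both strands for 5 motifs. GAGGAA was in the windows of 6 genes (*Mpo*, *Prtn3*, *Elane*, *Ctsg*, *Ms4a3*, and *S100a8*), and in 28.3% of all 32851 windows. The core-binding factor motif TGTGGT was in those of *Ctsg*, *Lyz2*, and *S100a9*, and in 16.8% of all windows. None of the 10 windows held the interferon regulatory factor element (GAAA, any 2 bases, GAAA, in 3.44% of all windows), the C/EBP motif TTGCNNAAT (2.40%), or the MYB motif AACNGTT (4.45%). A match states only that the letters are there, and the lack of a match only that they are not in this window.

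*Mpo* encodes myeloperoxidase, the azurophil enzyme that makes hypochlorous acid. Its normalized counts were 306, 231, and 355 in *Irf1*-/- HSCs and 227, 231, and 253 in WT HSCs. The lowest *Irf1*-/- library lay within the WT range and the others above it. limma gave a log2 fold change of 0.30 (SE 0.22, 95% interval −0.16 to 0.77, adjusted *P* = 0.561), an interval that holds both 0 and the fold change threshold. Leaving out *Irf1*-/- replicate 4 gave 0.17, and leaving out *Irf1*-/- replicate 3 gave 0.48.

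*Ctsg*, which encodes the protease cathepsin G, had the lowest mean of the 10 genes, with 5 to 21 reads per library. Its normalized counts were 17.1, 4.32, and 21.8 in *Irf1*-/- HSCs and 6.58, 9.02, and 10.8 in WT HSCs. The *Irf1*-/- libraries held the highest values and also the lowest. No difference was detected (log2 fold change 0.43, 95% interval −1.28 to 2.14, adjusted *P* = 0.866, limma). The value was 0.19 without *Irf1*-/- replicate 2, 0.26 without WT replicate 2, and 1.08 without *Irf1*-/- replicate 3, and edgeR gave 0.71.

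*Ms4a3* encodes a membrane protein of granulocyte-monocyte progenitors. Its normalized counts were 97.0, 66.5, and 96.5 in *Irf1*-/- HSCs and 81.5, 67.6, and 61.3 in WT HSCs. Of the *Irf1*-/- libraries, 1 lay inside the WT range, and limma gave a log2 fold change of 0.29 (95% interval −0.45 to 1.03, adjusted *P* = 0.761).

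*Lyz2* encodes the lysozyme of myeloid cells, which cleaves bacterial cell walls, and its locus is widely used to drive Cre in these cells. Its normalized counts were 25549, 31462, and 26617 in *Irf1*-/- HSCs and 23206, 29137, and 25956 in WT HSCs. The genotypes were interleaved, with replicate 3 the highest of each. The log2 fold change of 0.095 had the narrowest interval of the 10 genes (−0.13 to 0.33, adjusted *P* = 0.746, limma), wholly inside the fold change threshold. *Lyz1*, a near-identical copy, had 117 to 363 normalized counts per library, and the division of reads between both copies is uncertain.

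**Figure D2:**
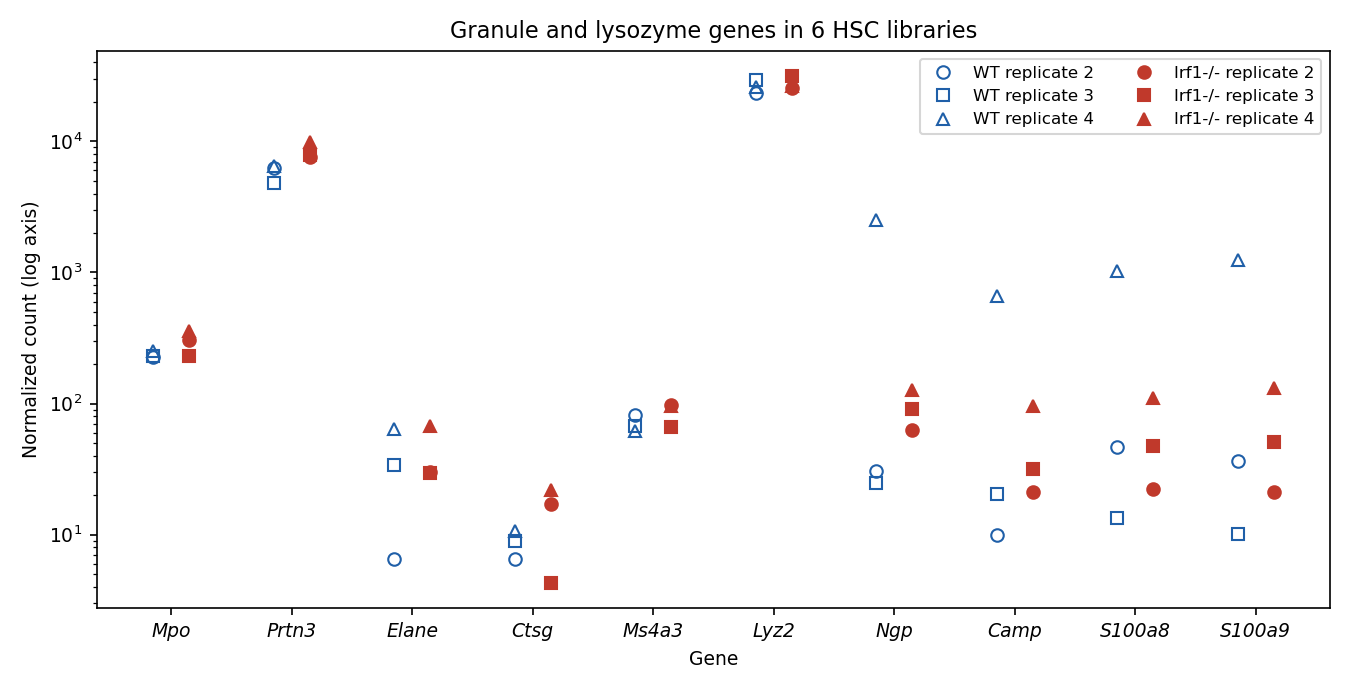
Normalized count (log axis) of each of the 10 genes in each library. Open blue symbols are WT, filled red symbols are *Irf1*-/-, and the shape gives the replicate number. All red symbols lie above all blue ones for *Prtn3* alone, and WT replicate 4 lies far above the other libraries for *Ngp*, *Camp*, *S100a8*, and *S100a9*.

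The remaining genes belong to later stages of granulopoiesis, and for each of them WT replicate 4 was by far the highest library. *Ngp* encodes neutrophilic granule protein, a cystatin-like protein of the specific granules. It had normalized counts of 62.9, 90.7, and 127 in *Irf1*-/- HSCs and 30.4, 24.8, and 2535 in WT HSCs. WT replicate 4 was 20.01 times the highest of the other 5 libraries. The log2 fold change was −0.49 (95% interval −3.08 to 2.10, adjusted *P* = 0.907, limma), while edgeR gave −3.20 (adjusted *P* = 0.180) and the ratio of the means was 0.108. Without WT replicate 4 the *Irf1*-/- libraries all lay above the remaining WT libraries, with a log2 fold change of 1.67 (SE 0.45, 95% interval 0.71 to 2.64, adjusted *P* = 0.0449, limma).

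*Camp* encodes the precursor of the antimicrobial peptide cathelicidin. Its normalized counts were 21.3, 32.0, and 95.5 in *Irf1*-/- HSCs and 9.87, 20.3, and 666 in WT HSCs. WT replicates 2 and 3 lay below all *Irf1*-/- libraries, the nearest pair being 20.3 and 21.3. The log2 fold change was −0.37 (adjusted *P* = 0.927, limma; −2.22 in edgeR), and 1.44 without WT replicate 4 (95% interval −0.045 to 2.93, adjusted *P* = 0.248, limma).

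*S100a8* and *S100a9* encode the subunits of calprotectin, a metal-binding protein of the neutrophil cytosol. *S100a8* had normalized counts of 22.4, 47.5, and 110 in *Irf1*-/- HSCs and 46.9, 13.5, and 1033 in WT HSCs. *S100a9* had 21.3, 50.98, and 131 in *Irf1*-/- HSCs and 36.2, 10.1, and 1246 in WT HSCs. The order of the 6 libraries was the same for both genes, and the genotypes overlapped with or without WT replicate 4. The log2 fold change of *S100a8* was −0.84 (adjusted *P* = 0.793, limma; −2.60 in edgeR), and 0.93 without WT replicate 4 (adjusted *P* = 0.492, limma). That of *S100a9* was −0.59 (adjusted *P* = 0.885, limma; −2.66 in edgeR), and 1.39 without WT replicate 4 (adjusted *P* = 0.302, limma).

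Without WT replicate 4, *Prtn3* and *Ngp*, 2 of the 10 genes, were called higher and 0 lower, where 1.77% of the 17202 genes then tested were called higher and 1.54% lower. All 10 log2 fold changes were then positive, with a median of 0.77, beside 50.2% of all genes and a median of 0.0020. As WT replicate 4 was left out for its high values of 4 of these genes, their shift is no test. *Prtn3*, *Ngp*, and *Camp* had *Irf1*-/- above WT without overlap, as had 18.2% of all genes. The intervals of the 8 genes that were not called included 0.

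**Figure D3:**
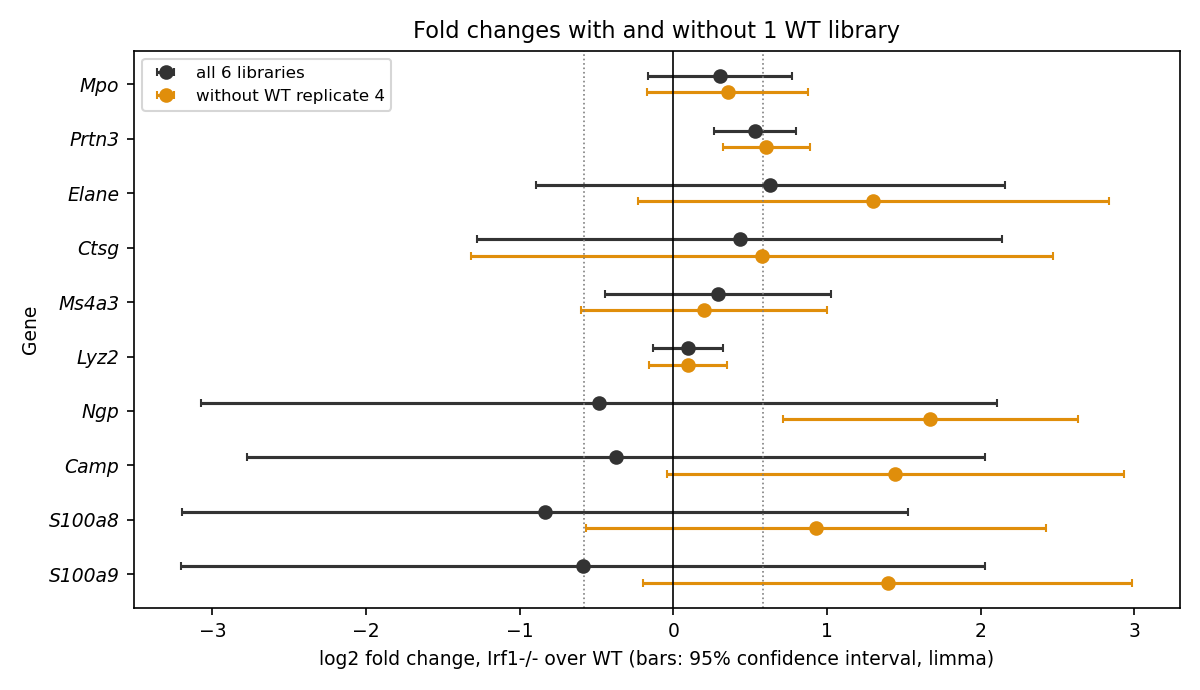
Log2 fold change (*Irf1*-/- over WT) of each gene with its 95% confidence interval from limma, with all 6 libraries (black) and without WT replicate 4 (orange). Dotted lines mark the fold change threshold of 0.58 in each direction. The estimates of *Ngp*, *Camp*, *S100a8*, and *S100a9* lie below 0 with all libraries and above 0 without WT replicate 4, and those of the other 6 genes are positive in both.

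The upstream bases of *Ngp* and *S100a9* are shown for the genes that were high in WT replicate 4. They lie at chr9:110419558-110419807 (plus strand) and chr3:90695722-90695971 (minus strand) in GRCm38.p6 (RefSeq) and are written along the gene. Capitals mark the reverse complement of TGTGGT in *S100a9*, and *Ngp* held none of the 5 motifs.
Ngp: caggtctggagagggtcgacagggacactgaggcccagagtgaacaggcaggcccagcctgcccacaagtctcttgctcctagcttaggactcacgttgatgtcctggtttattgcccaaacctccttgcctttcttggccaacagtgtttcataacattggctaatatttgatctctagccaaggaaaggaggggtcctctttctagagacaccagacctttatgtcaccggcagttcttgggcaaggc
S100a9: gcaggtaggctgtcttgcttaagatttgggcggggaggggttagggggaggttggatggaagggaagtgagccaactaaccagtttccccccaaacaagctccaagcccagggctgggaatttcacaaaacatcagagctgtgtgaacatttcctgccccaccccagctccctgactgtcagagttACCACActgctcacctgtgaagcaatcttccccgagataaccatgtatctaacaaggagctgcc

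The summed normalized counts of *Ngp*, *Camp*, *S100a8*, and *S100a9* were 5479 in WT replicate 4, 123 and 68.7 in WT replicates 2 and 3, and 128, 221, and 463 in *Irf1*-/- replicates 2, 3, and 4. The early genes did not follow. In WT replicate 4, *Mpo* was 1.10, *Prtn3* 1.16, *Ctsg* 1.38, *Ms4a3* 0.823, and *Lyz2* 0.992 times the mean of the other WT libraries, and *Elane*, at 3.20 times, was the exception. Among the *Irf1*-/- libraries, replicate 4 was the highest for 8 of the 10 genes. It held 3.58 times the mean of the other *Irf1*-/- libraries for *Camp*, 3.15 times for *S100a8*, 3.62 times for *S100a9*, and 1.65 times for *Ngp*. For the early genes these ratios were 2.28 for *Elane*, 2.04 for *Ctsg*, 1.32 for *Mpo*, 1.28 for *Prtn3*, 1.18 for *Ms4a3*, and 0.934 for *Lyz2*. *Camp*, *S100a8*, and *S100a9* thus lay above all early genes, and *Ngp* lay below *Elane* and *Ctsg*, which rest on few reads.

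All tested genes were then searched for values at least 5 times the highest of the other 5 libraries, a rule chosen after the values were seen. WT replicate 4 had 8 such genes (0.0460% of those tested), namely *Ngp*, *Camp*, *S100a8*, *S100a9*, *Lcn2* (33.0 times), *Ltf* (31.8 times), *Mmp9* (6.67 times), and *Ly6d* (10.5 times). *Lcn2* and *Ltf* encode lipocalin 2 and lactoferrin, iron-withholding proteins of the specific granules, and *Mmp9* encodes gelatinase B. The other 5 libraries had between 0 and 2 such genes, none of them among the 10. These counts depend on the filter on low values, which used all 6 libraries. A gene could pass it through its high library alone, as *Ly6d* did (at most 5.63 elsewhere). *Ly6g* did not pass it, though in WT replicate 4 it was 43.4 times the highest of the other libraries.

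The summed normalized counts of 10 markers of mature neutrophils were 2679 in WT replicate 4, 263 and 295 in the other WT libraries, and 277 to 382 in *Irf1*-/- libraries, and 6 of the 10 markers were highest in WT replicate 4. *Ltf* made up 2032 of that sum. *Ly6g*, the defining surface marker, had 46.3 in WT replicate 4 and between 0 and 1.07 elsewhere, below the 2.47 to 3.38 that 3 reads are worth. *Retnlg* (60.2), *Mmp8* (83.9), and *Cxcr2* (97.9), which mark late neutrophils, lay within the range of the other libraries. By the study's methods, bone marrow was stained for CD11b and Gr-1, an antibody that binds Ly6g, and HSCs were gated as negative for such lineage markers. The part of other cells in the values of WT replicate 4 was not tested.

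**Figure D4:**
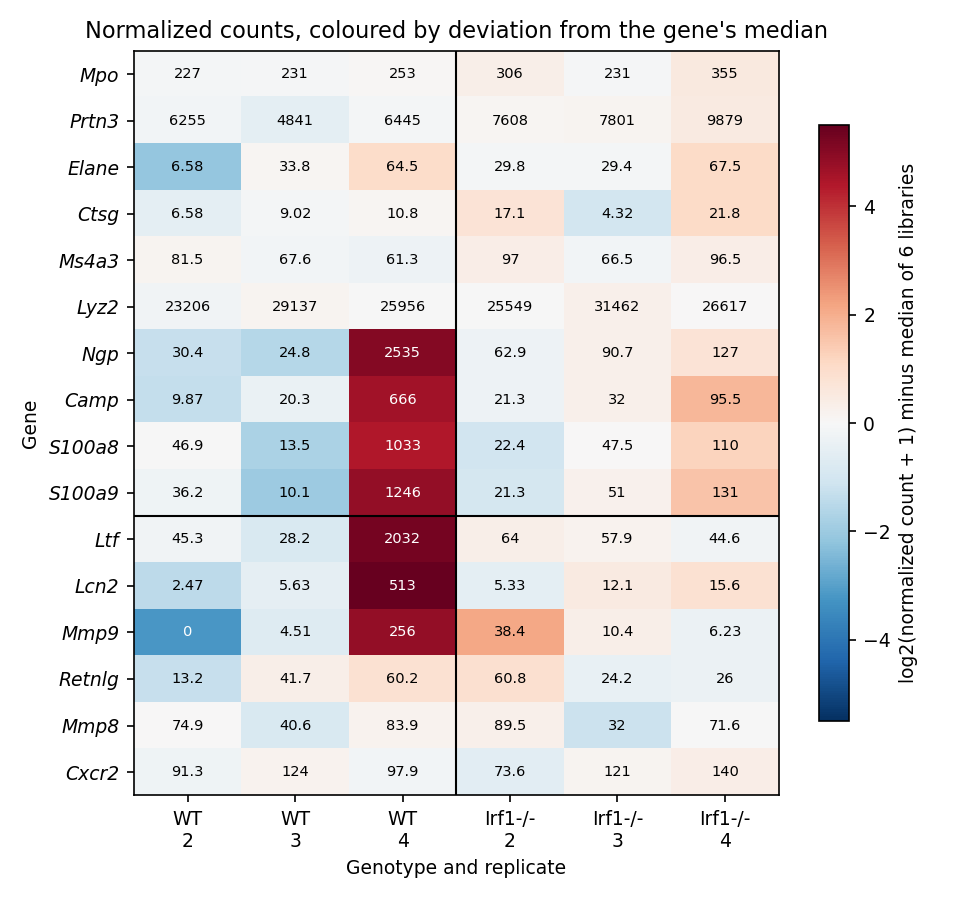
Normalized counts (numbers in the fields) of the 10 genes, above the line, and of 6 other neutrophil genes, below it, in the 3 WT and the 3 *Irf1*-/- libraries. Colour gives log2(normalized count + 1) minus the gene's median over the 6 libraries. The darkest red fields lie in WT replicate 4, among them those of *Ngp*, *Camp*, *S100a8*, *S100a9*, *Ltf*, *Lcn2*, and *Mmp9*.

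Markers of other cells were counted in the same way, from lists chosen with earlier results of these data known, so their counts are no test. The summed normalized counts of 14 monocyte and macrophage markers were 3380 to 4964 in WT and 3858 to 4498 in *Irf1*-/- libraries, and 0 of them were called. *Cd48*, which the HSC sort selects against, had normalized counts of 257 to 359 in WT and 279 to 431 in *Irf1*-/- libraries and was not called. It was 1 of a list of 7 progenitor and myeloid genes, of which 5 had positive log2 fold changes. The HSC gate as the study defines it uses neither CD34 nor Flt3, so this list does not count cells outside the gate. Of these 7, 1 was called higher (*Flt3*, 0.67, adjusted *P* = 0.0407, limma, and in 2 of 6 fits that left out 1 library) and 0 lower. Their summed normalized counts, with *Cd34* the most abundant, were 20497 to 21758 in WT and 22398.5 to 27974 in *Irf1*-/- libraries. Of 12 HSC genes tested 1 was called higher (*Fgd5*) and 0 lower, beside 0.960% and 0.954% of all genes. *Procr* (0.52, adjusted *P* = 0.0112, limma) and *Ly6a*, the gene of the sort marker Sca-1 (−0.43, adjusted *P* = 0.0245, limma), passed the threshold on *P* alone. Of 11 B and plasma cell markers 10 were tested, of 12 T and NK cell markers 6, and of 13 eosinophil, basophil, and mast cell markers 5, with 0 called in each. *Epx*, the eosinophil peroxidase gene, was too low to be tested, with normalized counts of 8.53, 14.7, and 9.34 in *Irf1*-/- and 0, 0, and 1.08 in WT libraries, and was singled out after its values were seen. All other markers of that list overlapped between genotypes. Among them, *Prg2* had means of 25.1 in *Irf1*-/- and 25.4 in WT libraries, and *Mcpt8* 1.04 and 4.31. Of 7 erythroid markers tested 2 (*Car1* and *Klf1*), and of 8 megakaryocyte markers 3 (*Pf4*, *Gp1bb*, and *Gp5*), were called lower in *Irf1*-/- HSCs, beside 0.954% of all genes. In fits that left out 1 library, *Pf4* and *Gp1bb* were called in all 6, *Car1* in 4, and *Klf1* and *Gp5* in 2, with largest adjusted *P* values in limma of 0.0681, 0.117, and 0.137 for *Car1*, *Klf1*, and *Gp5*.

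Related genes were counted from lists, to be read beside the 0.960% of all genes called higher and the 0.954% called lower. As the lists were chosen with earlier results of these data known, their counts are no test. Of 19 other azurophil and early granulocyte genes tested, *Hk3*, a hexokinase of myeloid cells, was called higher (3831 ± 188 in *Irf1*-/- and 2162 ± 386 in WT HSCs, SD, *n* = 3, log2 fold change 0.84, adjusted *P* = 0.00155, limma) and 0 were called lower, with a median log2 fold change of −0.027. *Srgn*, the proteoglycan that packs granule proteins (−0.31, adjusted *P* = 0.0758, limma), and *Calr*, a chaperone (−0.24, adjusted *P* = 0.293, limma), were the most abundant. Of 17 specific granule genes tested besides *Ngp* and *Camp*, 0 were called, with a median of −0.10, and *Tcn2*, a vitamin B12 carrier, passed the threshold on *P* alone (0.44, adjusted *P* = 0.0305, limma). It was among the most abundant of them with *Cyba*, a subunit of the phagocyte oxidase (−0.11, adjusted *P* = 0.664, limma). Of these genes 13 of the 20 in the table were highest in WT replicate 4, and without it 2 were called higher, beside 1.77% of all genes, and the median was 0.43. Some of them, *Lcn2* included, gave no value in that fit. As most were highest in the library left out, their shift is no test.

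Of 12 gelatinase granule and mature neutrophil genes tested, *Clec4e*, a lectin receptor, was called higher (0.87, adjusted *P* = 0.0141, limma), and *Csf3r*, the receptor of granulocyte colony-stimulating factor, passed the threshold on *P* alone (0.56, adjusted *P* = 0.0102, limma) and was the most abundant with *Padi4*, a histone-modifying enzyme (0.28, adjusted *P* = 0.188, limma). In a list of other S100 genes, of which 10 were tested with *S100pbp*, the gene of an S100-binding protein, among them, *S100a6*, a calcium-binding protein, was called higher (0.68, adjusted *P* = 0.0245, limma), and the most abundant were *S100a11* (0.31) and *S100a10* (−0.088), which were not called. Of 8 other *Ms4a* genes 0 were called, with log2 fold changes of −0.071 and 0.16 for the most abundant, *Ms4a6b* and *Ms4a6c*. In fits that left out 1 library, *Hk3* was called in all 6, *Clec4e* in 4 (the largest adjusted *P* was 0.0720, limma), and *S100a6* in 2 (0.0792).

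Of 19 tested regulators and receptors of granulocyte-monocyte differentiation, 6 were called higher and 0 lower, where 0.960% and 0.954% of all genes were, and the median log2 fold change was 0.36, beside −0.0028 over all genes. This list was chosen with earlier results of these data known, so its share of calls is no test. The genes called were the transcription factors *Cebpd* (1.04), *Egr1* (1.01), and *Gfi1* (0.94), and the receptors *Csf2rb* (0.81), *Csf2rb2* (0.83), and *Flt3* (0.67). *Csf2rb* and *Csf2rb2* are near-identical copies that may share reads. The most abundant, the transcription factor genes *Myb* (0.18, adjusted *P* = 0.412, limma) and *Cbfb* (−0.11, adjusted *P* = 0.705, limma), were not called. Of these, *Cebpd* and *Egr1* were called in all 6 fits that left out 1 library, *Gfi1* and *Csf2rb* in 5, and *Csf2rb2* and *Flt3* in 2, where the largest adjusted *P* in limma was 0.204 for *Csf2rb2* and 0.127 for *Flt3*.

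Some of the 10 genes belong to gene lists that the study used and that come from other samples. *Prtn3*, *Elane*, *Ctsg*, and *Ms4a3* are in the list of pre-granulocyte-macrophage genes, of which 11 were called higher and 7 lower among 215 tested (median log2 fold change 0.078). *Prtn3* is in the list of genes higher in aged HSCs (30 called higher and 16 lower of 458, median 0.22), and *Mpo* in that of genes lower in aged HSCs (11 called higher and 15 lower of 307, median −0.17). Over all 17404 genes 167 were called higher (0.960%) and 166 lower (0.954%).

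The genes most like *Mpo* over the 6 libraries, by the Pearson correlation of log2 values among 12068 genes with a mean of at least 100, were *Rybp*, *Prom2*, *Matk*, *C920006O11Rik*, and *Stambpl1* (*r* from 0.986 to 0.991). Like *Mpo*, they were highest in *Irf1*-/- replicate 4 and next highest in *Irf1*-/- replicate 2. Among the 10 genes, *r* over the 6 libraries was 0.997 for *S100a8* with *S100a9* and 0.962 for *Ngp* with *Camp*, pairs that share the high values of WT replicate 4. *Mpo* had 0.911 with *Ctsg* and 0.760 with *Prtn3*. These values are a description of 6 libraries, 3 of each genotype, and mix differences between and within genotypes.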

How the data were processed

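Members and lists were chosen with earlier results of these data known. In each genotype 1 library per mouse was made with SMART-Seq v4 and Nextera XT, without molecular identifiers, so PCR copies were counted as reads. The authors used Trim Galore for trimming, HISAT2 for alignment, and Htseq-count for counting, and deposited a signal, the count of each gene divided by 1 size factor per library. The submitters' processing notes name the build mm39. Versions, annotation, and strand setting are not given in the sources used here, so reads of overlapping genes cannot be separated. All values (100%, within 0.001) were whole multiples of 1 read, so reads were recovered.

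limma 3.58.1 in R 4.3.3 (intensity trend, pseudocount 1, no covariate) was the main test, since the deposited values are not raw counts. Benjamini-Hochberg adjustment ran over all genes tested. edgeR 4.0.16 and DESeq2 1.42.0 were run on the recovered reads. Fold changes from limma are on the log2(value + 1) scale, where those of low genes depend on the pseudocount. With pseudocounts of 0.5 and 8, that of *Elane* was 0.65 and 0.42, and that of *Ngp* −0.48 and −0.59. Lengths came from GENCODE vM1, and promoters from RefSeq (GRCm38.p6), a build other than that of the reads. Libraries of a genotype differed by more than sampling noise (chi-square per gene 16.0 to 30.0), and the value of 3 reads covers counting error only. Text names the 10 genes, *Irf1*, the called and the 2 most abundant genes of each list of related genes, and the 5 most like *Mpo*. *Lyz1* was added as the copy of *Lyz2*. Of marker lists some genes were named after their values were seen, and 1 gene is not reported here. Genes of the study's lists were only counted. Alternatives changed the pseudocount, filter, trend, normalization, thresholds, tool, replicate block, transcript length, and each library.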

Additional observations from a re-analysis of the deposited data

How the results depend on the processing

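Of 161 results for the 10 genes under other settings, 151 kept direction and call and 7 reversed, of which *Ngp* without WT replicate 4 was also called. The other 3 are of *Prtn3*, which passed both thresholds without WT replicate 2 or WT replicate 4 and the threshold on *P* when no fold change was required. Changes of the filter, intensity trend, replicate block, or fold change threshold leave the fold change in limma as it was. Under these settings only the call could differ, so they add nothing on direction. Leaving out 1 library in turn gave log2 fold changes from 0.17 to 0.48 for *Mpo*, 0.40 to 0.60 for *Prtn3*, −0.25 to 1.30 for *Elane*, 0.19 to 1.08 for *Ctsg*, 0.20 to 0.47 for *Ms4a3*, 0.0050 to 0.18 for *Lyz2*, −1.64 to 1.67 for *Ngp*, −1.52 to 1.44 for *Camp*, −2.15 to 0.93 for *S100a8*, and −2.01 to 1.39 for *S100a9*. The reversals came without WT replicate 2 for *Elane* (−0.25), without WT replicate 4 for *Ngp* (1.67), *Camp* (1.44), *S100a8* (0.93), and *S100a9* (1.39), and without *Irf1*-/- replicate 2 for *Camp* (0.073) and *S100a9* (0.045). The number of the 10 genes called higher ranged from 0 to 2 when 1 library was left out, being 1 without WT replicate 2 and 2 without WT replicate 4, and was 1 (*Prtn3*) with no fold change threshold.

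Over all genes 167 were called higher and 166 lower. Without the intensity trend these counts were 7 and 33, with no fold change threshold 301 and 260, and in DESeq2 295 and 209. Leaving out 1 library gave 83 to 304 higher and 105 to 265 lower. edgeR gave log2 fold changes of 0.29 for *Elane*, 0.71 for *Ctsg*, −3.20 for *Ngp*, −2.22 for *Camp*, −2.60 for *S100a8*, and −2.66 for *S100a9*, with 0 called. DESeq2 gave an adjusted *P* for 4 of the 10 genes. *Elane* and *Ctsg* gave no value with a filter at a mean of 50, nor *Ctsg* without *Irf1*-/- replicate 4. With the median transcript length, the WT level per kb was 294 for *Mpo*, 8076 for *Prtn3*, and 55.8 for *Ms4a3*. The same-numbered libraries had correlated deviations of −0.094, 0.246, and 0.147, so the numbers are not taken as pairs, and a replicate block gave 219 genes higher and 196 lower, with 0 of the 10 called (*Prtn3* had an adjusted *P* of 0.00645 in limma). *Ctsg* rests on 5 to 21 reads per library and *Elane* on 8 to 65. The causes were not tested.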

Other observations

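Outside WT replicate 4, the same search for values at least 5 times those of every other library found *Jchain* (123 times) and *Apol11b* (44.5 times) in WT replicate 3, *Ccl5* (5.55 times) in WT replicate 2, and *Slfn14* (6.76 times) in *Irf1*-/- replicate 4. No gene of the lists of other azurophil granule genes and of regulators was above this limit in WT replicate 4. *Apol11b* had at most 2.15 in the other libraries and passed the filter on low values through WT replicate 3 alone.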
